A study of Mus musculus with 16 samples.

Results

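Genes of the Hedgehog pathway were followed in the mouse kidney epithelial line mIMCD3: *Smo*, *Ptch1*, *Gli1*, *Gli2*, *Gli3*, *Gpr161*, *Sufu*, *Hhip* and *Kif7*. They were taken by gene symbol from the TPM table (a level per transcript length, scaled to nearly the same total in every library) and by the same Ensembl identifier from the count table, and all 9 members were found among the 54393 genes counted. mIMCD3 cells derive from the inner medullary collecting duct of an SV40 transgenic mouse, and the labels give their genotype as wild type. All cells grew for 10 days on permeable filters in the same serum-containing renal epithelial medium and were then given vehicle (DMSO) or 2 μg/mL doxycycline (DOX) for 3 or 6 days, with 4 libraries in each of the 4 groups. Poly(A) RNA of the 16 libraries gave 16933343 to 23960860 counts each. The 4 libraries of a group are separate samples of 1 cell line, and the labels do not say that they were grown as separate cultures, so p-values measure the spread between these samples.

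Hedgehog ligands bind the receptor Ptch1, which otherwise holds back the membrane protein Smo. In vertebrates the pathway runs through the primary cilium, the single antenna of a resting epithelial cell, and mIMCD3 is a line in which cilia are often studied. Without ligand, the ciliary receptor Gpr161 keeps protein kinase A active, Sufu binds the GLI factors, Kif7 orders the ciliary tip, and Gli3 is cut to a repressor. With ligand, Smo enters the cilium and the GLI factors turn on target genes, and *Gli1*, *Ptch1* and *Hhip* are the targets most often used as a readout.

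Of the 9 members 6 were expressed. The mean over the 16 libraries was highest for *Smo* at 23.7 ± 3.01 TPM (SD, n = 16), which ranked 4812 among 53354 genes of the TPM table. *Gpr161* followed at 10.9 ± 1.87 TPM and *Sufu* at 8.38 ± 1.54 TPM. *Ptch1* stood at 3.86 ± 0.791 TPM, *Gli3* at 3.77 ± 0.728 TPM and *Kif7*, at rank 12104, at 1.71 ± 0.386 TPM. *Gli1* had a mean of 0.0386 TPM, *Gli2* of 0.0321 TPM and *Hhip* of 0.000625 TPM. On the per-length TPM scale *Smo* was 2.17 times *Gpr161*, and the lowest *Smo* library, at 20.0 TPM, lay above the highest *Gpr161* library, at 14.3 TPM. *Gpr161* exceeded *Sufu* in 16 of 16 libraries although their ranges overlapped. *Ptch1* and *Gli3* could not be put in order, since *Ptch1* was the higher in 8 of 16 libraries. *Gli1* and *Gli2* likewise had no order, with *Gli1* the higher in 8 of 16 libraries.

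**Figure D1:**
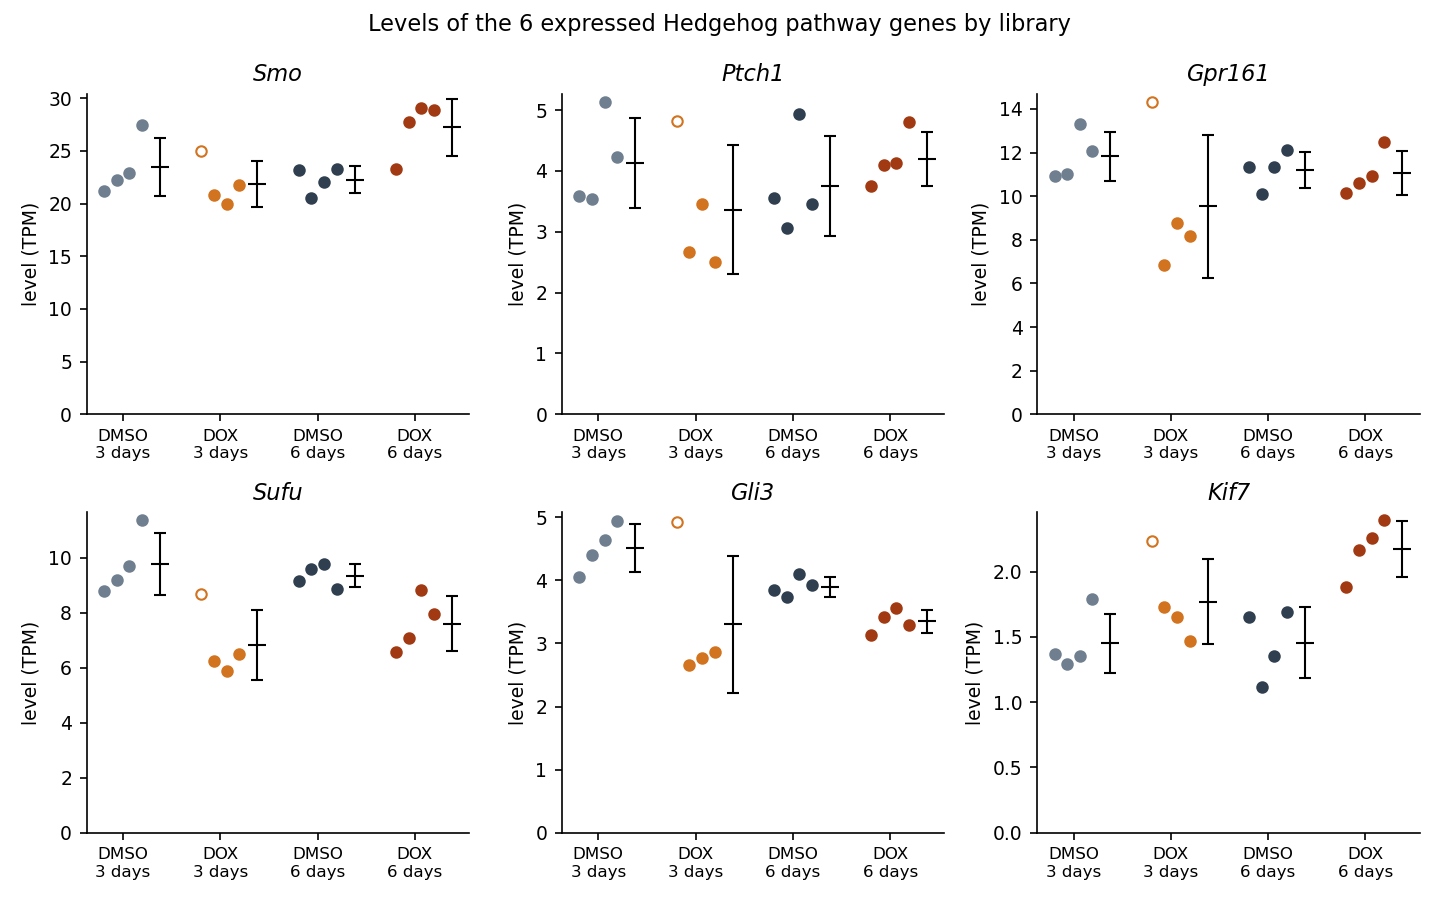
TPM (vertical axis, from 0) of the 6 expressed members in the 4 groups, 1 point a library, with mean ± SD (n = 4) in black; the open circle is DOX 3 days replicate 1. In *Gpr161*, *Ptch1* and *Gli3* the open circle lies far above the other 3 DOX 3 days libraries, and the 4 DOX 6 days libraries of *Kif7* lie above all 4 DMSO 6 days libraries.

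At the top of the pathway, the genes for the secreted ligands were at or near 0 in every library. *Shh* had 0 to 5 counts a library and 11 in all, *Ihh* 0 to 5 and 16 in all, and *Dhh* 0 to 2 and 11 in all. A count of 3, taken as the floor, corresponds to 0.125 to 0.177 CPM (counts scaled to library size) in these libraries, so any ligand level under this was not detectable at this depth, and this floor covers counting error only. The ligand binder *Gpc3*, a glypican, had 0 to 3 counts a library. *Scube1* and *Scube2*, which help to release ligand, had at most 2 and 1 counts. The co-receptor *Boc* had 4 to 23 counts a library and did not pass the filter of the count test, at least 1 CPM in at least 4 libraries.

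The 2 activators and the target *Hhip* were as low, unlike the target *Ptch1*, which had 340 to 616 counts a library. *Gli1*, the factor that is itself switched on by the pathway, had counts of 0, 0, 2 and 1 in DMSO and 3, 3, 1 and 3 in DOX at 3 days, and 2, 5, 3 and 2 in DMSO and 2, 2, 1 and 0 in DOX at 6 days. *Gli2*, the main activator, had counts of 1, 7, 1 and 4 in DMSO and 2, 1, 4 and 2 in DOX at 3 days, and 4, 1, 2 and 4 in DMSO and 1, 4, 2 and 2 in DOX at 6 days. *Hhip*, a decoy that binds ligand at the cell surface, had 1 count in each of 2 libraries and was at 0 in the other 14. The groups overlapped in all 3 genes, save that the TPM of *Gli1* at 3 days ran from 0 to 0.034 in DMSO and from 0.036 to 0.089 in DOX. An exact two-sided permutation test of this difference gave p = 0.0286 (n = 4 and 4), the smallest that 70 arrangements allow, and 0.171 after Benjamini-Hochberg adjustment over the 6 tests of *Gli1*, *Gli2* and *Hhip*. At 6 days the TPM mean of *Gli1* was 0.0618 in DMSO and 0.0288 in DOX (exact permutation p = 0.2). All of these *Gli1* means lie at the level of a few counts, so no fold is given. The gene span of *Gli1* (chromosome 10, 127329882 to 127341974, GRCm38) also overlaps the protein-coding *Arhgap9* on the opposite strand. Besides *Gli1* and *Kif7*, no member overlaps another protein-coding gene.

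**Figure D2:**
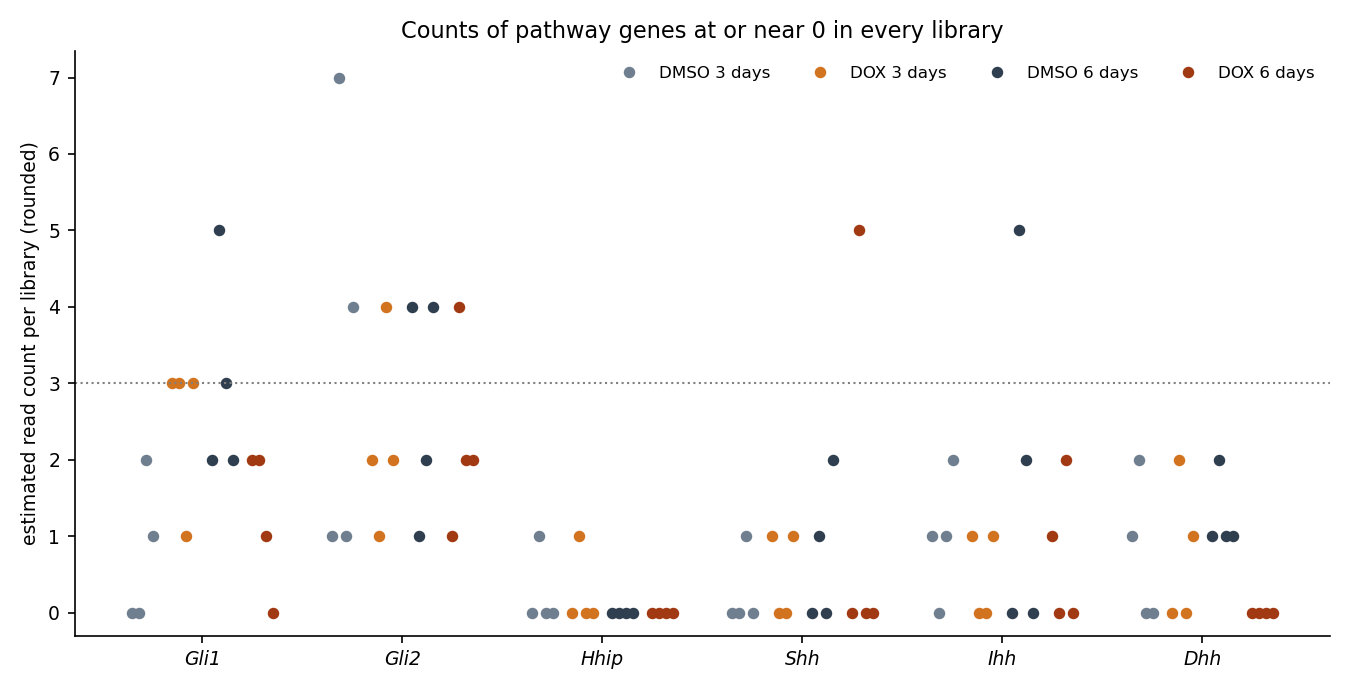
Estimated counts per library (rounded, vertical axis) of *Gli1*, *Gli2*, *Hhip* and the 3 ligands, 1 point a library, coloured by group; the dotted line is the floor of 3 counts. No library has more than 7 counts of any of these genes, while the 16 libraries hold 1207 to 2083 counts of *Smo*.

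Promoter windows are shown for 4 members that mark the ends of this range: *Smo*, the highest; *Kif7*, the member called at 6 days; *Ptch1*, the receptor that is also a target; and *Hhip*, the target at 0. RefSeq windows on GRCm38.p6, 250 bases before to 50 after a start, exist in the table used for 8 of the 9 members, and *Gpr161* has 2. Lower case is used throughout with each CG dinucleotide in capitals. The windows are chr6:29735247-29735546 on the plus strand for *Smo*, chr7:79715658-79715957 on the minus strand for *Kif7*, chr13:63565686-63565985 on the minus strand for *Ptch1* and chr8:80057959-80058258 on the minus strand for *Hhip*. The *Ptch1* window lies inside the annotated span of the gene, not at its end.
Smo: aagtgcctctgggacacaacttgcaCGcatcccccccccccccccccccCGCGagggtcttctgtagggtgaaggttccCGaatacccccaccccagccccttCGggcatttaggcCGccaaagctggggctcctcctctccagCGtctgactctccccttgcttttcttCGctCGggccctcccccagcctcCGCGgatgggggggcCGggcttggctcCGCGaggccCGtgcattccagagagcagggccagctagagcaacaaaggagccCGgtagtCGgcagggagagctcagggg
Kif7: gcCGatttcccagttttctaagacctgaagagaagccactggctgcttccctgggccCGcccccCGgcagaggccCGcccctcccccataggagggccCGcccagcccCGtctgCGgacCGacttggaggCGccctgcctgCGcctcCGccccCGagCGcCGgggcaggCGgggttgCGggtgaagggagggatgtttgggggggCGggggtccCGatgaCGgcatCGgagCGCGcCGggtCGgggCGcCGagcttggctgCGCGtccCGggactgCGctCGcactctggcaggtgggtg
Ptch1: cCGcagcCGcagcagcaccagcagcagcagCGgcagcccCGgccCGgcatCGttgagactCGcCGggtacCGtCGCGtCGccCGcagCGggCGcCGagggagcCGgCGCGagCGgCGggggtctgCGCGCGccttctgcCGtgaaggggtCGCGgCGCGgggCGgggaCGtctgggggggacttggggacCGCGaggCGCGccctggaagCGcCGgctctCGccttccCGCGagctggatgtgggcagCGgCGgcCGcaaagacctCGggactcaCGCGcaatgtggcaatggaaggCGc
Hhip: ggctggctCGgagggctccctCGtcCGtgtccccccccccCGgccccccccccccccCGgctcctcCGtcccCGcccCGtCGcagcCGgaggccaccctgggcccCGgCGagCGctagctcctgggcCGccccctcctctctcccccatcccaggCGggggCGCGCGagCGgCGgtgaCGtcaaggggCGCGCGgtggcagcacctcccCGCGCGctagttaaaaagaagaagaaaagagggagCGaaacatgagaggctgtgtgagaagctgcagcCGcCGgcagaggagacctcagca

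These windows were rich in CG dinucleotides whether or not the gene was expressed. *Ptch1* had 47, *Gli3* 39, *Kif7* 31, *Hhip* 30, *Gli2* 28, *Smo* 17 and *Sufu* 12, against a median of 7 over all 32851 windows of the table. Both windows of *Gpr161* were poorer, with 1 and 5, although *Gpr161* was the second most abundant member. The letters GACCACCCA, the binding motif of the GLI factors, were searched on both strands and occur in 83 of the 32851 windows (0.253%). They are in none of the 9 member windows, which says only that these exact letters are not within these 300 bases.

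Libraries DOX 3 days replicate 1 and DMSO 6 days replicate 1 stood apart from their groups, and the first decides several of the 3-day values given below. In DOX 3 days replicate 1 23.2% of the tested genes lay more than 0.3 (log2 CPM) from the mean of the other 3 libraries of its group, against 8.98% to 12% for those 3. DMSO 6 days replicate 1 had 21.6%, and the SD of its deviations was larger, 0.415 against 0.332. A trend with transcript length moved with DOX 3 days replicate 1. The median deviation from the DMSO mean over the genes of the top length quartile minus that over the bottom quartile was 0.00 (log2) in DOX 3 days replicate 1 and -0.33, -0.28 and -0.37 in replicates 2, 3 and 4. It ran from 0.03 to 0.16 in DMSO 3 days, from -0.21 (replicate 1) to 0.07 in DMSO 6 days and from -0.18 to -0.05 in DOX 6 days. By mean annotated transcript length *Smo*, *Ptch1*, *Gli3*, *Gpr161* and *Kif7* were longer than 85.3% to 95.4% of the tested genes and *Sufu* longer than 54.1%. The 3-day values of the 6 expressed members are therefore given with and without DOX 3 days replicate 1 and after an offset for transcript length and GC content. The 6-day values are not given separately without DMSO 6 days replicate 1. Leaving out each library in turn, that one included, the 6-day log2 fold changes kept their sign. They ran from 0.32 to 0.38 for *Smo*, 0.27 to 0.35 for *Ptch1* and 0.57 to 0.74 for *Kif7*. For *Gli3* they ran from -0.22 to -0.11, for *Sufu* from -0.18 to -0.10 and for *Gpr161* from -0.10 to -0.0004.

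DOX was compared with DMSO at each time in the 6 members that passed the filter. These are levels of bulk RNA, in which fewer cells that express a gene and less of its RNA per cell cannot be told apart. The test was the quasi-likelihood test of edgeR against a change of 20% (glmTreat), two-sided, with Benjamini-Hochberg adjustment over 13234 genes, and a gene is said to have risen or fallen only below an adjusted p of 0.05. At 3 days none of the 6 members was called, where 12.5% of all tested genes were. An unadjusted edgeR p under 0.05 was found for 1 of them, and for 2867 of the 13234 genes. DESeq2 likewise called 0 members, where it called 1019 of all genes. At 6 days 1 of the 6, *Kif7*, was called, where 21.6% of all tested genes were. The median log2 fold change of the 6 members was -0.19 at 3 days and 0.13 at 6 days, beside 0.00 over all genes tested at either time. Without the 20% threshold 4 of the 6 passed at 3 days (*Gli3*, *Sufu* and *Gpr161* lower, *Kif7* higher), where 45.2% of all genes did, and 3 of the 6 at 6 days (*Smo*, *Ptch1* and *Kif7* higher), where 50.6% did.

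*Kif7* (ENSMUSG00000050382), the kinesin that organizes the tip of the cilium, was the member that changed most with DOX. Its TPM at 6 days was 1.66, 1.12, 1.35 and 1.69 in DMSO and 1.88, 2.16, 2.26 and 2.39 in DOX, so that every DOX library lay above every DMSO library. It rose by 0.66 ± 0.117 on the log2 scale (SE), 1.58-fold, with an edgeR adjusted p of 0.00227. At 3 days its TPM was 1.37, 1.29, 1.36 and 1.79 in DMSO and 2.24, 1.73, 1.65 and 1.47 in DOX, and the groups overlapped on this scale but not in CPM. The 3-day log2 fold change was 0.48 ± 0.118 with an edgeR adjusted p of 0.0726. It was 0.42 without DOX replicate 1 (edgeR adjusted p = 0.141), and 0.75 with the length and GC offset, which brought it past the threshold (edgeR adjusted p = 0.000301). On log2(TPM + 1) with limma the values were 0.17 at 3 days and 0.37 at 6 days, and the 6-day value did not pass (adjusted p = 0.699). On this scale the added 1 makes the fold of genes of low TPM smaller. The 6-day means of *Kif7* were 1.45 TPM in DMSO and 2.17 TPM in DOX. The span of *Kif7* (chromosome 7, 79698098 to 79715720, minus strand) overlaps the protein-coding *Ticrr* and an antisense gene on the plus strand. *Ticrr* had a mean of 5.22 TPM in DMSO and 3.83 TPM in DOX at 6 days. Its log2 fold change of -0.36 did not pass (edgeR adjusted p = 0.167). Any part of the overlapping genes in the *Kif7* values was not tested. Whether strand was used in counting is not given in the sources used here.

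*Smo* (ENSMUSG00000001761, spanning 29735503 to 29761365 of chromosome 6), the signal transducer, had 21.2, 22.3, 22.9 and 27.4 TPM in DMSO and 25.0, 20.8, 20.0 and 21.8 TPM in DOX at 3 days. At 6 days it had 23.2, 20.5, 22.1 and 23.3 TPM in DMSO and 23.3, 27.7, 29.1 and 28.9 TPM in DOX. The groups overlapped at 3 days, while at 6 days each DOX library lay above each DMSO library, by a narrow margin for DOX replicate 1. The log2 fold change was 0.08 ± 0.0555 at 3 days and 0.34 ± 0.0554 at 6 days (approximate 95% interval 0.23 to 0.45), and the 6-day value did not pass the test against 20% (edgeR adjusted p = 0.102). Without DOX 6 days replicate 1 it did, at 0.38 (edgeR adjusted p = 0.0375). The difference between the 2 times, 0.26 ± 0.0784, passed its own test, which has no fold threshold (edgeR adjusted p = 0.0281), where 17.0% of all genes did. Against a change of 20%, as in the tests of DOX, it did not pass (edgeR adjusted p = 0.873). The 3-day value was 0.08 also without DOX 3 days replicate 1. With the length and GC offset the 3-day value became 0.29 and the difference between the times 0.03 (edgeR adjusted p = 0.790), so that the call was lost. It was also lost on log2(TPM + 1) with limma (0.37, adjusted p = 0.119) and when any 1 of 8 libraries was left out, at edgeR adjusted p of 0.0514 to 0.0774: replicate 4 of DMSO and replicates 2 and 3 of DOX at 3 days, and replicates 2 and 3 of DMSO and 2, 3 and 4 of DOX at 6 days.

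*Ptch1* (ENSMUSG00000021466, spanning 63508328 to 63573598 of chromosome 13), the receptor and target, had 3.60, 3.54, 5.13 and 4.23 TPM in DMSO and 4.82, 2.67, 3.46 and 2.50 TPM in DOX at 3 days. At 6 days it had 3.56, 3.06, 4.94 and 3.45 TPM in DMSO and 3.75, 4.10, 4.12 and 4.81 TPM in DOX. These TPM values overlapped at both times, whereas in CPM the DOX libraries at 6 days, 23.9 to 26.3, lay above the DMSO libraries, 19.4 to 23.0. The log2 fold change was -0.16 ± 0.0855 at 3 days and 0.29 ± 0.0851 at 6 days, and neither passed the test (edgeR adjusted p = 1.00 and 0.421). The difference between the times was 0.45 ± 0.121 and passed the test without a fold threshold (edgeR adjusted p = 0.0147), but not that against 20% (edgeR adjusted p = 0.260). It was 0.55 without DOX 3 days replicate 1 (edgeR adjusted p = 0.000704) and 0.33 with the length and GC offset (edgeR adjusted p = 0.0223), and without a threshold it passed in each of the 16 fits that left out 1 library. On log2(TPM + 1) with limma it was 0.39 and did not pass (adjusted p = 0.296). With the length and GC offset the 3-day value was 0.01 and the 6-day value 0.34. Without DOX 3 days replicate 1 the 3-day value was -0.26.

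*Gpr161* (ENSMUSG00000040836, spanning 165295789 to 165326745 of chromosome 1), the ciliary receptor that feeds protein kinase A, had 10.9, 11.0, 13.3 and 12.1 TPM in DMSO and 14.3, 6.86, 8.78 and 8.17 TPM in DOX at 3 days. DOX replicates 2, 3 and 4 lay below all DMSO libraries and replicate 1 above them. The log2 fold change was -0.21 ± 0.0841 (edgeR adjusted p = 0.917), -0.34 without that replicate (edgeR adjusted p = 0.171) and 0.01 with the length and GC offset. At 6 days the means were 11.2 ± 0.834 TPM in DMSO and 11.1 ± 1.02 TPM in DOX (SD, n = 4), with a log2 fold change of -0.04 and an approximate 95% interval of -0.21 to 0.12.

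*Gli3* (ENSMUSG00000021318, spanning 15463235 to 15730026 of chromosome 13), the factor that acts mostly as a repressor, had the same shape at 3 days, with 4.05, 4.40, 4.64 and 4.95 TPM in DMSO and 4.92, 2.65, 2.76 and 2.87 TPM in DOX. Replicate 1 of DOX lay within the DMSO range and the other 3 well below it. The log2 fold change was -0.29 ± 0.101 (edgeR adjusted p = 0.533), and without DOX replicate 1 *Gli3* fell by 0.45 on the log2 scale and passed the test (edgeR adjusted p = 0.0220), where 17.3% of all genes did. With the length and GC offset and all libraries it was -0.10 and did not pass. At 6 days the TPM of *Gli3* was 3.73 to 4.10 in DMSO and 3.14 to 3.56 in DOX, so the groups did not overlap on this scale, but in CPM they did, with a log2 fold change of -0.16 ± 0.102 (edgeR adjusted p = 1.00).

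*Sufu* (ENSMUSG00000025231, spanning 46396896 to 46488804 of chromosome 19), the GLI-binding brake, had 8.78, 9.20, 9.70 and 11.4 TPM in DMSO and 8.69, 6.24, 5.90 and 6.48 TPM in DOX at 3 days. Here all 4 DOX libraries lay below all DMSO libraries, replicate 1 by little. The log2 fold change was -0.30 ± 0.0696 (edgeR adjusted p = 0.405), -0.35 without DOX replicate 1 and -0.23 with the length and GC offset, and none of these passed the test against 20%. At 6 days the TPM ran from 8.86 to 9.78 in DMSO and from 6.55 to 8.82 in DOX, again without overlap on this scale, and the log2 fold change was -0.14 ± 0.0696. In CPM, 2 of the 6 members (*Sufu* lower, *Kif7* higher) had groups that did not overlap at 3 days, as had 38.6% of all genes, and 3 of the 6 (*Smo*, *Ptch1* and *Kif7* higher) at 6 days, as had 43.0%. For TPM no such share was computed, so the separations of *Sufu*, *Gli3*, *Smo* and *Kif7* on that scale have no background beside them. On log2(TPM + 1) with limma the median change of all genes was itself -0.15 at 3 days and -0.05 at 6 days.

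**Figure D3:**
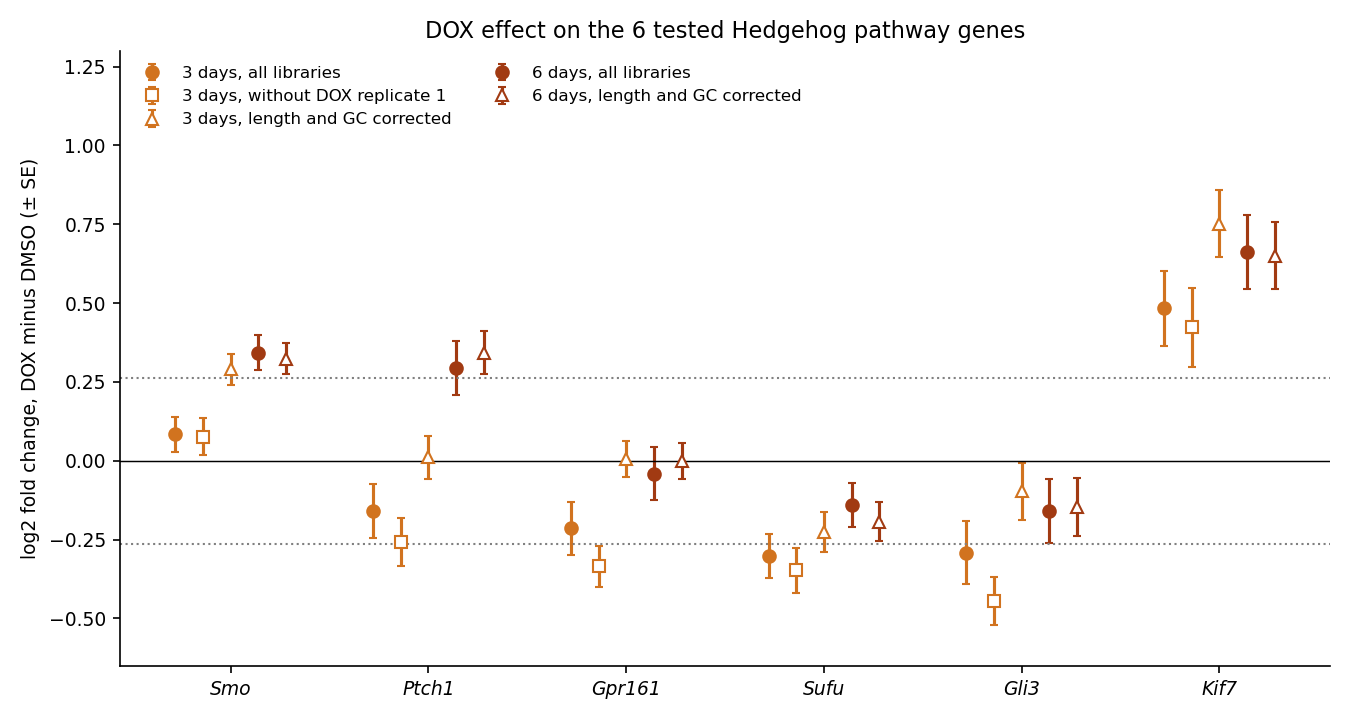
Log2 fold change of DOX against DMSO (vertical axis, ± SE) for the 6 tested members at 3 days (orange) and 6 days (dark red), with all libraries (filled circles), without DOX 3 days replicate 1 (squares) and with the length and GC offset (triangles); dotted lines mark a change of 20%. The 3-day values of *Gli3*, *Gpr161* and *Ptch1* lie below 0 and move to -0.10, 0.01 and 0.01 with the offset, while the 5 values plotted for *Kif7* are 0.42 or above.

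The difference between the times was tested in the same fit for all 6 members, without a fold threshold. It was called for 2, *Smo* and *Ptch1*, where 17.0% of all genes were, and against 20% it was called for 0, where 1.38% of all genes were. It was 0.13 ± 0.143 for *Gli3*, 0.17 ± 0.119 for *Gpr161*, 0.16 ± 0.0984 for *Sufu* and 0.18 ± 0.167 for *Kif7* (edgeR adjusted p from 0.269 to 0.564). Without DOX 3 days replicate 1 it was called for 4, *Gli3* and *Gpr161* being added, where 28.6% of all genes were. Within one treatment, none of the 6 members was called between 6 and 3 days in the test against 20%. In DMSO 0 of the 6 were called, as was 0% of all genes, and 172 of all genes but none of the members had an unadjusted edgeR p under 0.05; the log2 differences ran from -0.27 for *Gli3* to -0.05 for *Kif7*. In DOX 0 of the 6 were called, where 3.94% of all genes were, and again none had an unadjusted edgeR p under 0.05, where 1656 of all genes had. DESeq2 called 0 members in both, where it called 243 of all genes in DOX. Without the threshold *Ptch1* was called in DOX, at 0.23 (edgeR adjusted p = 0.0477), where 30.2% of all genes were, and 0 members in DMSO, where 0.468% were. In CPM the DMSO libraries of 2 members, *Gli3* and *Gpr161*, were lower at 6 days than at 3 days without overlap, as were groups of 12.2% of all genes in either direction, and in DOX 0 members had groups that did not overlap, where 25.4% of all genes had.

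The members fell into 2 sets by how their log2 CPM ran over the 16 libraries, given here as a description of libraries that share treatment, time and the length trend. *Gli3*, *Gpr161* and *Sufu* correlated with each other at r of 0.71 to 0.74, and *Smo* with *Kif7* at 0.86. *Ptch1* was less close to either set, at 0.59 with *Gpr161*, 0.32 with *Gli3* and 0.25 with *Sufu*, and at 0.47 with *Smo* and 0.36 with *Kif7*. Among all tested genes, those most like *Smo* were *Cnnm3* (0.96), *Plod3* (0.95) and *Arhgap39* (0.95), and those most like *Ptch1* were *Cbfa2t2* (0.92), *Pacs1* (0.91) and *Sytl2* (0.89), each over 16 libraries.

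The rest of the pathway was read from 5 lists of 59 genes in all, of which 48 passed the filter. At 3 days 2 rose and 2 fell, and at 6 days 8 rose and 3 fell, where 12.5% and 21.6% of all tested genes were called, with list medians of -0.06 and 0.06. These rises include *Ccnd2* at both times and *Foxf1* at 6 days, which reached 1 CPM in 1 and 0 DMSO libraries and so entered the test through DOX. Without both, a count added after the data were seen, 1 rose and 2 fell at 3 days and 6 rose and 3 fell at 6 days, of 46 tested. On log2(TPM + 1) with limma, 2 of the 48 were called at 3 days (*Prkacb* and *Mycn*) and 3 at 6 days (*Cul3*, *Ift122* and *Foxf1*), where 5.32% and 9.92% of all genes were, and the calls lost there are given with each gene. Of the 8 genes for ligands and their release, 3 were tested. *Hhat*, the acyltransferase that puts palmitate on the ligands, rose at 6 days by 0.56 ± 0.132 (edgeR adjusted p = 0.0224), from 1.29 to 2.51 TPM in DMSO to 2.39 to 2.95 TPM in DOX, which overlap on this scale. This call was lost with DESeq2 (0.56, adjusted p = 0.238) and, at 0.46 to 0.54, without replicate 2 or 4 of DMSO or replicate 3 of DOX at 6 days (edgeR adjusted p of 0.0528 to 0.0984). With limma on log2(TPM + 1) it was 0.32 (adjusted p = 1.00). *Disp1*, the ligand exporter, had log2 fold changes of -0.09 and 0.02, and *Scube3* of -0.47 (edgeR adjusted p = 0.0547) and -0.20, at 3 and 6 days. Without DOX 3 days replicate 1 the 3-day value of *Scube3* was -0.54 and passed the test (edgeR adjusted p = 0.0198).

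Among the 5 co-receptors and ligand binders 3 were tested and none was called at either time. *Cdon* had 3.74 to 5.73 TPM in DMSO and 2.82 to 6.40 TPM in DOX at 3 days, with log2 fold changes of -0.14 and 0.03 at 3 and 6 days. *Gas1* had log2 fold changes of -0.46 ± 0.181 and 0.02 ± 0.173, and the endocytic receptor *Lrp2* of -0.71 ± 0.533 and -0.39 ± 0.491. Leaving out any 1 library, *Lrp2* ran from -0.92 to -0.30 at 3 days and from -0.71 to -0.15 at 6 days.

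All 20 cytoplasmic regulators were tested, and those called fell. They were 1 at 3 days and 2 at 6 days, where 12.5% and 21.6% of all tested genes were called. *Prkacb*, a catalytic subunit of protein kinase A, fell by 0.42 ± 0.0642 at 3 days and by 0.47 ± 0.0642 at 6 days (edgeR adjusted p = 0.0220 and 0.00339). Its 3-day call was lost with DESeq2 (adjusted p = 0.177), with the length and GC offset (-0.34, edgeR adjusted p = 0.116) and without replicate 1 of DMSO or replicate 2, 3 or 4 of DOX at 3 days (edgeR adjusted p of 0.0598 to 0.0708). Its 6-day call was lost with limma (-0.53, adjusted p = 0.0714). *Cul3*, the scaffold of the ubiquitin ligase that can take GLI factors through its adaptor Spop, fell at 6 days by 0.63 ± 0.0683 (edgeR adjusted p = 2.9e-05), from 49.0 to 69.0 TPM in DMSO to 33.8 to 38.1 TPM in DOX. Its 3-day value was -0.36 ± 0.0682 (edgeR adjusted p = 0.149). The other 18 were not called at either time.

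All 15 genes of the ciliary machinery were tested, and here the called genes rose. They were 1 at 3 days and 4 at 6 days, where 12.5% and 21.6% of all tested genes were called. With limma on log2(TPM + 1) 0 and 1 of the 15 were called, where 5.32% and 9.92% of all genes were. *Ift172*, a subunit of the anterograde transport complex, rose by 0.59 ± 0.0679 at 3 days and 0.66 ± 0.0678 at 6 days (edgeR adjusted p = 0.000235 and 9.7e-06). Both calls were lost with limma on log2(TPM + 1), at 0.25 and 0.24 (adjusted p = 1.00 in both). At 6 days *Ift122* and *Ttc21b*, of the retrograde complex, rose by 0.71 ± 0.0672 and 0.46 ± 0.0807 (edgeR adjusted p = 2.6e-06 and 0.0145). The call of *Ttc21b* was lost with DESeq2 (adjusted p = 0.139) and without replicate 2 of DMSO or replicate 4 of DOX at 6 days (edgeR adjusted p = 0.0509 and 0.0551), and with limma (0.30, adjusted p = 1.00). *Evc2*, whose product sits at the ciliary base and works with Smo, rose at 6 days by 0.54 ± 0.0703 (edgeR adjusted p = 0.000705) and had 0.04 ± 0.0708 at 3 days. With limma the 6-day call was lost (0.40, adjusted p = 0.548) and the 3-day value was -0.16. The median over the 15 genes was 0.05 at 3 days and 0.27 at 6 days, beside 0.00 over all genes. The difference between the times was called for 6 of the 15, each higher at 6 days, where 17.0% of all genes were called, among them *Evc2* at 0.50 and *Ift122* at 0.36. For *Evc* and *Cep164*, also among them and named after their values were seen, DOX was lower at 3 days. *Evc* had 77.2 to 82.5 CPM in DMSO and 59.5 to 72.1 in DOX there, and *Cep164* 30.3 to 32.1 and 24.0 to 29.1. These groups did not overlap, as was so for 38.6% of all genes, but neither gene was called at 3 or at 6 days. With the length and GC offset it was called for 2 of the 15, where 15.1% of all genes were: *Evc2* at 0.38 and *Evc*, named after its values were seen, at 0.34. There *Ift122* was 0.26 and did not pass (edgeR adjusted p = 0.0526). Against a change of 20% it was called for 0 of the 15.

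Of the 11 target genes 7 were tested. Their median log2 fold change was -0.17 at 3 days and -0.35 at 6 days, beside 0.00 over all genes. Without the fold threshold 2 passed as higher and 4 as lower at 3 days, where 45.2% of all genes passed. At 6 days 3 were higher and 4 lower, where 50.6% of all genes passed. The 4 lower genes were *Mycn* and, named after their values were seen, *Ccnd1*, *Ccne1* and *Foxm1*. With the threshold, and no offset, these last 3 were not called at either time. *Mycn*, a growth-promoting factor, fell at 3 days by 1.02 ± 0.150 and at 6 days by 0.72 ± 0.146 (edgeR adjusted p = 0.000225 and 0.00419). Its 6-day call was lost with limma on log2(TPM + 1) (-0.46, adjusted p = 0.294). *Bcl2*, a survival gene, rose at 6 days by 0.57 ± 0.0927 (edgeR adjusted p = 0.00278), a call lost with limma (0.31, adjusted p = 1.00). *Ccnd2*, a G1 cyclin, rose at both times, by 1.73 ± 0.425 and 2.02 ± 0.346 (edgeR adjusted p = 0.00964 and 0.000189), and *Foxf1*, a mesenchymal transcription factor, rose at 6 days by 1.83 ± 0.274 (edgeR adjusted p = 4.5e-05). With limma the values of *Ccnd2* were 0.52 and 0.58 and did not pass (adjusted p = 0.703 and 0.492), and that of *Foxf1* at 6 days was 0.58 (adjusted p = 0.0127). Both genes were scarce, with 3 to 68 counts of *Ccnd2* and 5 to 42 of *Foxf1* a library. On log2(TPM + 1) the added 1 makes the fold of genes this low smaller. *Foxf1* reached 1 CPM in the 4 DOX 6 days libraries and no other, and *Ccnd2* in 7 DOX libraries and 1 DMSO library, so both entered the test through the groups in which they were high, and a count of called targets that includes them carries little weight. Without DMSO 3 days replicate 4, *Bcl2* and *Foxf1* also passed at 3 days, at 0.48 and 1.05 (edgeR adjusted p = 0.0336 and 0.0458).

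**Figure D4:**
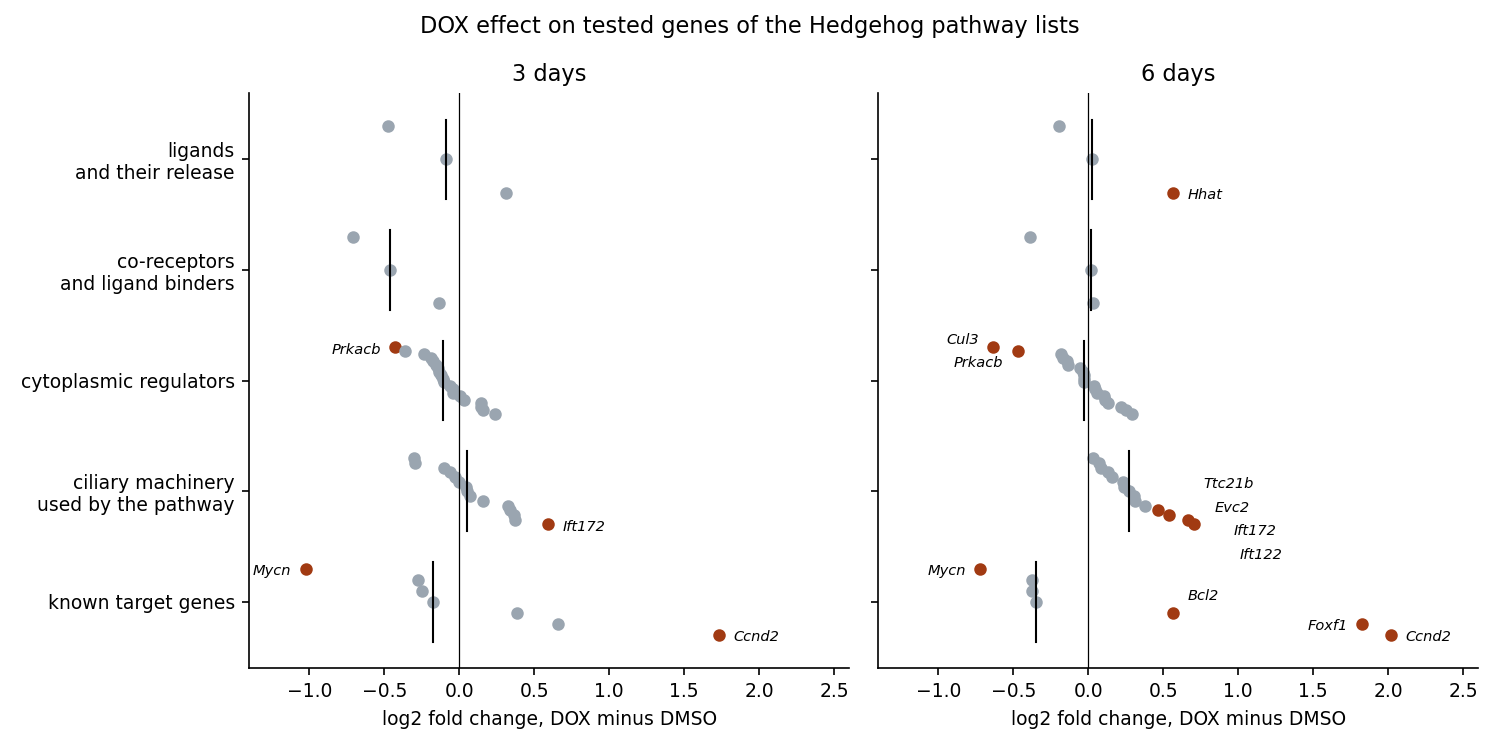
Log2 fold change of DOX against DMSO (horizontal axis) at 3 days (left) and 6 days (right) for the 48 tested genes of the 5 lists, 1 point a gene, with called genes in dark red and named, and the list median as a black bar. At 6 days the ciliary machinery list lies to the right, with a median of 0.27 and 4 of 15 genes called. The called cytoplasmic regulators *Cul3* and *Prkacb*, 2 of 20, lie to the left. Of all tested genes 21.6% were called at 6 days.

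The cell type labels were checked with marker lists. The 5 epithelial markers summed to 1914 to 2330 TPM in the 8 DMSO libraries and 1369 to 1605 TPM in the 8 DOX libraries, with *Cdh1* and *Krt8* called lower at 3 days and *Krt8*, *Krt18* and *Cldn4* at 6 days, and their part in the member values was not tested. None of the 4 collecting duct markers (*Aqp2*, *Aqp3*, *Avpr2*, *Scnn1b*) passed the filter, and they summed to 0.423 to 2.80 TPM, so these defining markers of the labelled cell type were low. *Aqp3* reached 1 CPM in 2 libraries and *Avpr2* in 1. The 8 fibroblast and stromal markers, cells in which *Gli1* and *Gli2* are often expressed, summed to 0.134 to 1.23 TPM, and none passed the filter. The 4 macrophage and leukocyte markers summed to 6.06 to 10.8 TPM in DMSO and 2.86 to 6.25 TPM in DOX. Of these *Csf1r* alone passed the filter, and it was called lower at 3 and 6 days (log2 fold changes of -0.82 and -0.63). The 3 endothelial markers summed to 0.449 to 1.13 TPM.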

How the data were processed

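Poly(A) RNA of 16 mIMCD3 libraries (DMSO or DOX, 3 or 6 days, 4 each) was made into directional libraries and sequenced as 75-base pairs. Per the labels and the study's methods, read pairs were aligned to GRCm38.p6 with STAR and abundance was estimated with salmon. The authors deposited 2 tables of genes, estimated counts, which are not normalized, and TPM. Whether strand was used and the annotation release are not given in the sources used here. Both tables name all 16 libraries, and 0 columns were left unused. Gene IDs with versions matched GENCODE M21, from which spans, overlaps and transcript lengths were taken.

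Counts were rounded, and a gene was tested if 4 or more libraries reached 1 CPM (13234 genes). A robust quasi-likelihood model with TMM scaling and 1 mean for each group was fitted to all libraries in edgeR 4.0.16 (R 4.3.3), and contrasts were tested with glmTreat at a 1.2-fold threshold, after the study's methods. The difference between times was tested without a threshold, as the interaction. CPM are TMM-scaled. Approximate 95% intervals come from the SE. The TPM of members under the filter were compared by exact permutation. Alternatives were RLE factors, DESeq2 1.42.0, limma 3.58.1 on log2(TPM + 1), other filters, a non-robust fit, a replicate block, an offset from splines of length and GC with 5 degrees of freedom, fits of the compared libraries only, and leaving out each library. The fits were tested on simulated data. Promoter windows are RefSeq's.

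The members and lists were chosen with earlier results of these data known. One gene of the lists is not reported here and was left out of them. Genes were named by rule: all members, ligands and co-receptors, then up to 5 called genes of each other list by smallest adjusted p, and 3 genes most correlated with *Smo* and *Ptch1*. *Ticrr* was added after its values were seen, because it overlaps *Kif7*, and marker genes were named as called.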

Additional observations from a re-analysis of the deposited data

Results flagged for a closer look

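In groups of 4 libraries, 5 of 34 gene and group pairs tested had 1 library whose gap to the next, as a share of the range, passed Dixon's 95% limit. Chance gives about 1 in 20 for continuous values, a rate that does not hold for the 3 pairs of *Hhip* and *Gli1* below, which rest on 1 count. *Gli3* in DOX 3 days was 4.92 TPM in replicate 1, with a share of 0.905, and the other 3 libraries were at 2.65 to 2.87 TPM. *Kif7* in DMSO 3 days was 1.79 TPM in replicate 4, with a share of 0.844. *Gli1* in DOX 3 days was 0.089 TPM in replicate 3, with a share of 0.868, on 1 count. *Hhip* was 0.005 TPM in replicate 2 of DMSO 3 days and in replicate 2 of DOX 3 days, each on 1 count with the rest of the group at 0, which gives a share of 1 in both.

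The DOX effect differed between 6 and 3 days by a test of the difference for *Smo* (0.26 on the log2 scale), *Ptch1* (0.45), *Ift122* (0.36) and *Evc2* (0.50), higher at 6 days in each. With the length and GC offset the value of *Smo* was 0.03, that of *Ptch1* 0.33, that of *Ift122* 0.26 and that of *Evc2* 0.38, and those of *Smo* and *Ift122* no longer passed.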

How the results depend on the processing

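Of 1340 values of single genes under 11 alternatives and the fits without 1 library, 1241 kept direction and call, 39 lost a call, 33 gained one and 27 changed sign. The count of 6 members of at least 1 TPM was the same on log2(TPM + 1), log2(TPM + 0.1) and CPM scales and without any 1 library, which the levels fix in advance. The lowest *Kif7* library was at 1.12 TPM, and *Gli1*, *Gli2* and *Hhip* reached at most 0.151 TPM.

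Without the 20% threshold, members called were 4 at 3 days, 3 at 6 days and 1 (*Ptch1*) for DOX 6 against 3 days, and listed genes 23 and 25. Of all genes 45.2% were called at 3 days, 50.6% at 6 days and 30.2% for DOX 6 against 3 days. With a 1.2-fold threshold the difference between times was called for 0 members, where 1.38% of all genes were. limma on TPM called 0 members at 6 days and 0 for the difference, and 2 and 3 listed genes. It called 5.32% of all genes at 3 days, 9.92% at 6 days and 5.00% for the difference. There the median of all genes moved to -0.15 at 3 days, 0.16 for DOX 6 against 3 days and 0.10 for the difference. The length and GC offset called 1 member at 3 days, 1 for the difference and 8 listed genes at 3 days (*Cul3*, *Ift122*, *Ttc21b*, *Bcl2* and *Ccne1* gained, *Prkacb* lost), and again 1, 1 and 8 with the replicate block. With the offset alone 11.7% of all genes were called at 3 days and 15.1% for the difference. Without 1 library, members called ran from 0 to 1 at 3 days, with 1 without DMSO 3 days replicate 4 or DOX 3 days replicate 4 (*Kif7*) or replicate 1 (*Gli3*); from 1 to 2 at 6 days, with 2 without DOX 6 days replicate 1; and from 1 to 4 for the difference. Listed genes called ran from 3 to 6 at 3 days and from 9 to 14 at 6 days. Of the 13234 tested genes, 1366 to 2295 were called at 3 days, 2545 to 3064 at 6 days and 1369 to 3787 for the difference.

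Signs changed on the TPM scale for *Smo* at 3 days (-0.095), *Evc2* at 3 days (-0.16), *Cdon* at 6 days (-0.072) and *Gas1* at 6 days (-0.042). With the length and GC offset, and then with the block added, *Ptch1* at 3 days was 0.010 and 0.0057, *Gpr161* at 3 days 0.0061 and 0.0046, *Disp1* at 3 days 0.12 and 0.12, *Cdon* at 3 days 0.0069 and 0.000747, and *Gas1* at 6 days -0.10 and -0.10; the difference between times was -0.050 and -0.050 for *Gli3*, -0.0063 and -0.0052 for *Gpr161* and -0.10 and -0.10 for *Kif7*. Without 1 library, *Disp1* at 6 days ran from -0.043 to 0.10, *Cdon* at 6 days from -0.0026 to 0.076, *Gas1* at 6 days from -0.058 to 0.17 and *Evc2* at 3 days from -0.010 to 0.078. Beyond the construction of each alternative the cause was not tested. For the difference between times, which uses all 16 libraries, no fit of the compared libraries only was made.

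Libraries of the same number did not deviate together (mean r of -0.10 at 3 days and -0.12 at 6 days), so the numbers were not taken as pairs. With the replicate block 0 members were called at 3 days, 1 at 6 days, 0 and 0 between times and 2 for the difference, and 4 and 11 listed genes, and the block changed no member's call. The fit without the block gave the same counts. It called 12.5% of all genes at 3 days, 21.6% at 6 days and 17.0% for the difference. Between times it called 0% in DMSO and 3.94% in DOX. Depth limits *Gli1*, *Gli2*, *Hhip* and the ligands, all at a few counts.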
